A study of Mus musculus with 18 samples.

Results

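Endothelial cells (ECs) of spontaneous MMTV-PyMT mammary tumours were compared with ECs of the normal mammary fat pad, both collected 3 hours after an injection of PBS. The 6 libraries of this comparison, 3 per tissue, were chosen by their labels among the 18 of the series. The tumours grew in MMTV-PyMT females, in which the polyoma middle T antigen is expressed from the mouse mammary tumour virus promoter, a promoter active mainly in mammary epithelium, and treatment began at 9 weeks of age. The fat pads came from wild type mice. All mice carried the FVB background per the labels, and the age of the fat pad donors is not given in the sources used here. Per the study each group held 3 mice taken over 3 experiments, so the p-values measure the spread between mice, and the labels do not say which libraries shared an experiment. The other 12 libraries were MMTV-PyMT and normal ECs after cGAMP, the second messenger that activates STING, and ECs of tumours grown from cultured MMTV-PyMT tumour cells implanted into FVB fat pads, after PBS or cGAMP. In every library the cells were enriched with CD31 beads and then sorted as live CD45- CD31+ cells, so most blood cells were excluded by the gate.

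ECs line all blood and lymphatic vessels and take on different states along the vascular tree. Arterial ECs express Notch-related and connexin genes, capillary ECs of fat take up fatty acids, venous ECs carry adhesion receptors for leukocytes, and flow along the vessel wall maintains the transcription factors Klf2 and Klf4. Growing vessels send out tip cells that degrade and rebuild the basement membrane under the influence of vascular endothelial growth factor. The mammary gland itself is built of luminal epithelium, some of which makes milk proteins, and of basal myoepithelium, and MMTV-PyMT tumours arise from the luminal cells.

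The deposited values were FPKM, a level per length of gene divided by a denominator for each library, from 9124935 to 12129416 recovered reads per library over the listed genes in the whole series. The denominators were not proportional to these reads. Implanted cGAMP 1 had 11303020 reads at a relative denominator of 0.708, and normal PBS 1 had 10212465 reads at a relative denominator of 1. A gene was called when its adjusted p-value was below 0.05 and its change at least 2-fold, that is 1 on the log2 scale, with limma on log2(FPKM + 1) and Benjamini-Hochberg adjustment over 13983 tested genes. Correlations of the log2 values were 0.985 to 0.989 between MMTV-PyMT PBS libraries, 0.986 to 0.989 between normal PBS libraries and 0.862 to 0.898 between the tissues. The tissues therefore differed by more than the libraries of either tissue. In MMTV-PyMT ECs 873 genes were called higher and 1072 lower, which is 6.24% and 7.67% of the tested genes and 13.9% together. All 3 MMTV-PyMT libraries lay above all 3 normal libraries for 35.4% of the tested genes and below them for 32.3%. Over all tested genes the log2 change had a median of 0.02. The counts depended on the reference level: when each library was scaled to an equal level of 20 pan-endothelial genes, the median of all genes moved up by 0.63 and 3973 genes were called higher against 399 lower, so that the share of rises among the calls was 90.9% in place of 44.9%. Of the 1072 falls 399 were called in the same direction under both scalings. All 873 rises were too, but that scaling raised every MMTV-PyMT library against the normal ones. It could therefore hardly lose a rise, and the count of kept rises is no support for them. List counts for this comparison below stand against 6.24% higher and 7.67% lower. With the scaling they stand against 3973 and 399 of 13983 genes and an all-gene median of 0.65. In bulk libraries fewer cells of a type and less RNA per cell cannot be told apart.

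**Figure D1:**
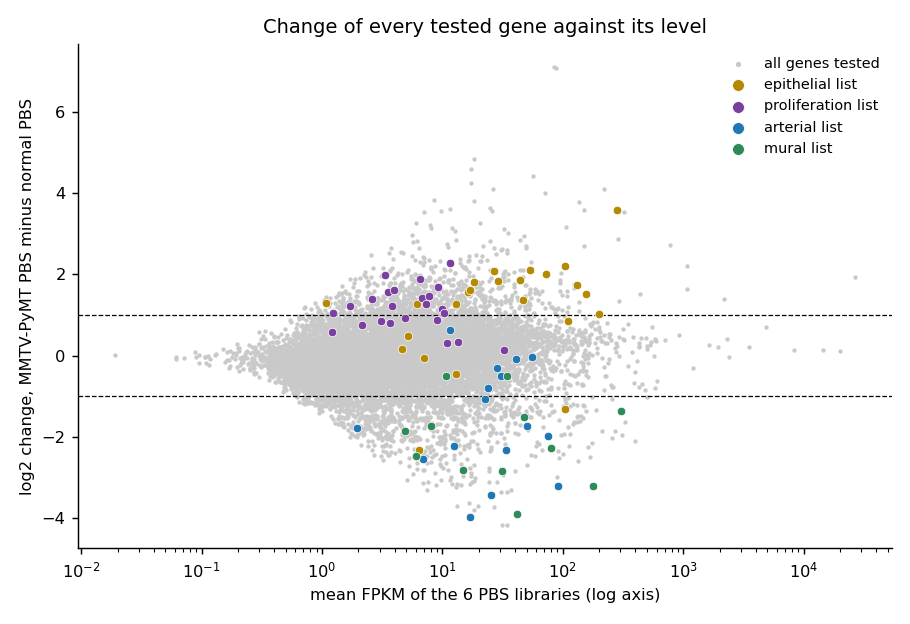
Log2 change of each of the 13983 tested genes, MMTV-PyMT PBS minus normal PBS, against the mean FPKM of the 6 libraries on a log axis. Coloured points are the epithelial, proliferation, arterial and mural lists and dashed lines mark 2-fold. The proliferation list sits above 0 and the mural list below 0. With libraries scaled to the pan-endothelial genes, which moves all changes up, their medians are 1.82 and −1.38.

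The identity of the cells was checked first on genes that define ECs and the neighbouring cell types. The summed level of 20 pan-endothelial genes was 2178 to 2479.8 FPKM in normal and 1286 to 1599.8 FPKM in MMTV-PyMT libraries. Pecam1 (ENSMUSG00000020717.19, chromosome 11, 106654217 to 106750628, minus strand), which encodes the sorted antigen CD31, measured 258, 291 and 292 FPKM in the normal libraries and 177, 153 and 138 FPKM in the MMTV-PyMT libraries. The tumour libraries were all below the normal ones, but the difference stayed under 2-fold (log2 change −0.84 ± 0.15 (SE), adjusted p = 0.000214). Cdh5, the adhesion molecule VE-cadherin of endothelial junctions, measured 265, 316 and 293 FPKM in normal and 325, 277 and 271 FPKM in MMTV-PyMT libraries, and these ranges overlapped (log2 change −0.00182 ± 0.17 (SE), adjusted p = 0.994). Kdr, the main receptor for vascular endothelial growth factor, was at 75.0 ± 4.62 FPKM in normal and 62.5 ± 6.57 FPKM in MMTV-PyMT ECs (SD, n = 3) and did not pass (adjusted p = 0.253). Both tissues thus held abundant RNA of endothelial genes, which differed among themselves. Of the 20 genes, 0 were called higher and 7 lower, with a median log2 change of −0.64, which turned to 0.15 when libraries were scaled to these same genes and 1 was called lower. The members called lower included Vwf, the clotting factor stored in endothelial granules, from 138 ± 11.8 to 29.0 ± 8.28 FPKM, S1pr1, a receptor that stabilises vessels, from 200.1 ± 22.2 to 63.9 ± 7.20 FPKM, and Tek, the receptor for angiopoietins, from 88.3 ± 7.14 to 33.5 ± 4.38 FPKM (SD, n = 3 each).

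Transcripts of epithelium were present in both tissues and higher in the tumour libraries. The 24 epithelial genes summed to 664 to 854 FPKM in normal and 1978 to 2280.01 FPKM in MMTV-PyMT libraries, with 1220.1 to 1710.4 FPKM in implanted PBS libraries between them. Of the 24 genes, 17 were called higher and 2 lower, with a median log2 change of 1.45 against 0.02 over all tested genes. Krt8 (ENSMUSG00000049382.10, chromosome 15, 101996698 to 102004482, minus strand), a keratin of luminal epithelium, measured 89.0, 85.7 and 67.9 FPKM in normal and 225, 232 and 236 FPKM in MMTV-PyMT libraries (log2 change 1.51 ± 0.22 (SE), adjusted p = 2.7e-05). The adhesion molecule Epcam measured 68.5, 57.7 and 54.2 FPKM and 186, 212 and 213 FPKM in the same order (log2 change 1.75 ± 0.19 (SE), adjusted p = 1.64e-06). For both genes each tumour library was above each normal library by more than 2-fold. Krt18, the partner of Krt8 in the keratin filament, rose less, from 131 ± 16.7 to 265 ± 11.3 FPKM (SD, n = 3, log2 change 1.02 ± 0.24 (SE), adjusted p = 0.00196). In the tumour libraries the level of Krt8, per kilobase, was thus below that of Cdh5 and above that of Kdr. The tight junction genes Cldn3, Cldn4 and Cldn7 rose as well, with log2 changes of 2.21, 2.11 and 2.07. The secreted iron-binding protein Lcn2 had the largest change of the list, from 42.6 ± 2.51 to 524 ± 75.1 FPKM (SD, n = 3, log2 change 3.58 ± 0.20 (SE), adjusted p = 2.42e-09). Krt19 and Wfdc2 went the other way, with Krt19 at 169.8, 147 and 126 FPKM in normal and 55.6, 60.9 and 59.7 FPKM in MMTV-PyMT libraries (log2 change −1.31 ± 0.23 (SE), adjusted p = 0.000175). With the pan-endothelial scaling Krt19 did not pass (log2 change −0.51, adjusted p = 0.195).

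To follow these transcripts gene by gene, an epithelial index was taken as the mean log2(FPKM + 1) of the 24 genes. It was 4.28, 4.17 and 3.90 in the normal PBS libraries and 5.19, 5.29 and 5.32 in the MMTV-PyMT PBS libraries, a difference of 1.15 (exact permutation test, two-sided, p = 0.1, the smallest value 3 against 3 libraries can give). Each gene was then correlated with the index over all 18 libraries after the mean of each of the 6 groups had been taken away, so that the tissue difference itself did not enter, and a gene of the list was left out of its own index. This coefficient is a description without a test, its 18 points share libraries and the FPKM denominator, and the index ran against the mean of the pan-endothelial genes (r = −0.88 within groups). A coefficient of at least 0.7 was found for 21 of the 24 epithelial genes, for 0 of the 20 pan-endothelial genes and for 5.46% of all tested genes. Among the 873 rises 290 genes, or 33.2%, reached it, and among the 1072 falls 8 genes did. The coefficient with the pan-endothelial mean reached 0.7 for 7.54% of all tested genes, for 11 of the rises and for 188 of the falls. A total of 572 rises and 876 falls reached neither value. The count of 290 rested in part on implanted cGAMP 1, the library with the lowest index of its group, and was 161 without it, when 2.66% of all tested genes reached 0.7. With only the 9 PBS libraries it was 223, and 119 rises reached 0.7 in all 3 settings.

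**Figure D2:**
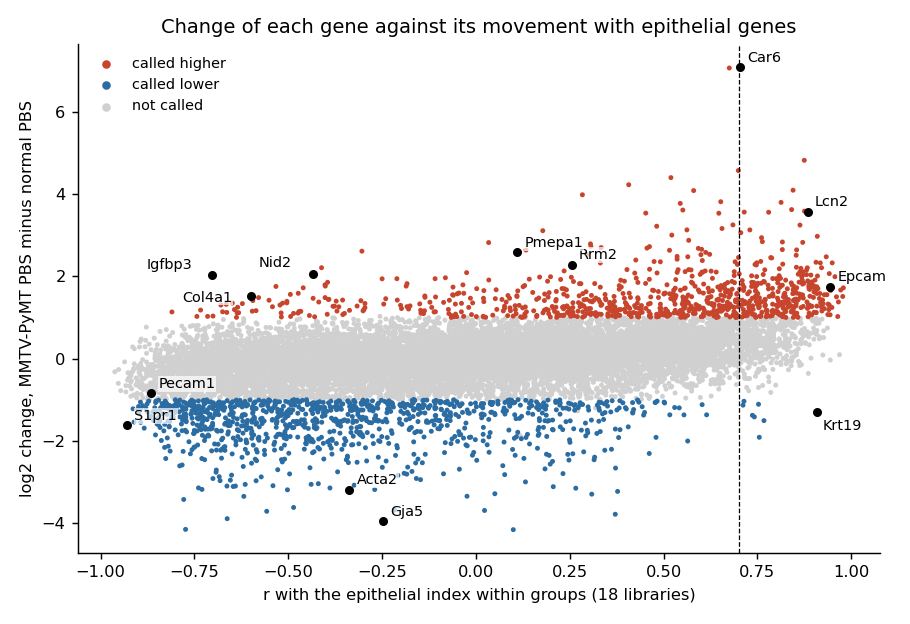
Log2 change of each tested gene, MMTV-PyMT PBS minus normal PBS, against its correlation with the epithelial index within groups over 18 libraries, with the dashed line at 0.7. Red points were called higher and blue points lower. Of the 763 genes beyond the line 290 were called rises, such as Lcn2 and Epcam, and 8 were called falls, such as Krt19, while Igfbp3, Nid2 and Col4a1 rose at negative coefficients.

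The 12 largest rises of the whole comparison were led by Car6 and Scgb2b27. Car6 (ENSMUSG00000028972.11, chromosome 4, 150187015 to 150201332, minus strand), a carbonic anhydrase secreted in saliva and milk, measured 0.140, 0.279 and 0.102 FPKM in normal and 102, 162 and 245 FPKM in MMTV-PyMT libraries, where the lowest normal value stood for 2 reads. Scgb2b27, of the secretoglobin family, measured 0.0539, 0.215 and 0.176 FPKM in normal and 73.7, 251 and 197 FPKM in MMTV-PyMT libraries. Both genes were thus close to absent in normal ECs and abundant in every tumour library, with fitted log2 changes of 7.10 and 7.08 that depend on the added pseudocount. Next came the membrane carbonic anhydrase Car12 with a log2 change of 4.83, the acute phase gene Saa1 with 4.58, the connexin Gjb2 with 4.41, the whey acidic protein gene Wap with 4.23, Col9a1 with 4.10 and the chitinase-like protein Chil1 with 4.09. Their within-group coefficients with the epithelial index ran from 0.41 for Wap to 0.87 for Car12. The other 4 of the 12 largest rises were Saa2, Wfdc18, Stac2 and Pigr, the receptor that carries immunoglobulin A into milk. The Saa and secretoglobin genes belong to families of close copies, between which read counting can divide or lose reads. Of 10 milk protein genes 4 were called higher and 1 lower, and their summed level was 284 to 475 FPKM in normal and 979 to 1593 FPKM in MMTV-PyMT libraries. Csn3, a casein, rose from 49.6 ± 11.8 to 588 ± 133 FPKM and the milk sugar subunit Lalba from 67.8 ± 20.9 to 501 ± 122 FPKM (SD, n = 3 each), while another casein, Csn1s2a, measured 58.3, 52.0 and 17.4 FPKM in normal and 0.752, 9.03 and 8.20 FPKM in MMTV-PyMT libraries (log2 change −2.83 ± 0.88 (SE), adjusted p = 0.0117). That call was lost without MMTV-PyMT PBS 1 (log2 change −2.01, adjusted p = 0.0705). Csn1s1 and Csn2, further caseins, were not called, at log2 changes of −1.89 and −1.88 with standard errors of 0.91 and 1.07.

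Markers of the remaining cell types were measured in the same way. Of the 23 lists the one with the lowest median was that of mural cells, the pericytes and smooth muscle cells that wrap vessels: 10 of 12 genes were called lower and 0 higher, at a median log2 change of −2.07 (−1.38 with the pan-endothelial scaling), and the summed level was 1135 to 1278 FPKM in normal and 267 to 362 FPKM in MMTV-PyMT libraries. Acta2 (ENSMUSG00000035783.9, chromosome 19, 34241090 to 34255590, minus strand), the smooth muscle actin, measured 336, 308 and 319 FPKM in normal and 35.3, 32.1 and 35.1 FPKM in MMTV-PyMT libraries (log2 change −3.19 ± 0.18 (SE), adjusted p = 2.83e-09). Myh11, the smooth muscle myosin, measured 83.2, 69.4 and 85.3 FPKM and 5.998, 4.01 and 3.39 FPKM (log2 change −3.90 ± 0.17 (SE), adjusted p = 5.08e-10). The mean level was thus 9.39 and 17.8 times lower in the tumour libraries for these contractile genes, and the pericyte genes Pdgfrb and Rgs5 fell less, by 1.51 and 1.36 on the log2 scale. Which of the cells present, mural or other, carried these transcripts was not tested. Of 14 leukocyte genes 4 were called lower, among them Ptprc, which encodes the excluded antigen CD45, at 3.91, 1.98 and 6.31 FPKM in normal and 0.267, 0.333 and 0.262 FPKM in MMTV-PyMT libraries (log2 change −1.88 ± 0.57 (SE), adjusted p = 0.0101), and the list summed to 54.1 to 120.4 FPKM and 38.2 to 59.7 FPKM, with the neutrophil genes S100a8 and S100a9 and the myeloid gene Itgam not among the listed genes. The median of the leukocyte list was −0.47 and turned to 0.21 with the pan-endothelial scaling. Of 12 fibroblast genes 1 was called higher (Col1a1) and 1 lower (Dpt), against 6.24% and 7.67% of all tested genes. With the pan-endothelial scaling 4 were called higher and 0 lower, against 3973 and 399 of the 13983 tested genes. The summed levels were 194 to 237 FPKM in normal and 212 to 314 FPKM in MMTV-PyMT libraries. Of 12 adipocyte markers only 4 were listed and 2 of these, Car3 and Lipe, were called lower, while Adipoq, Plin1 and Cfd were not listed. None of the listed values was 0 in any library, so a gene without reads in some libraries may be missing. That a gene was not listed therefore does not show that it was absent from either tissue. Basal epithelial genes numbered 7, with 1 called higher and 2 lower, and Krt5 and Krt14 were not called. The platelet chemokine Ppbp was the 1 call, lower, among 7 red cell and platelet genes. Of the 3 muscle and Schwann cell genes tested, Mb and Sox10 were called higher, and Sox10 is also expressed in mammary epithelium. The part of these other cells in the changes described next was not tested.

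**Figure D3:**
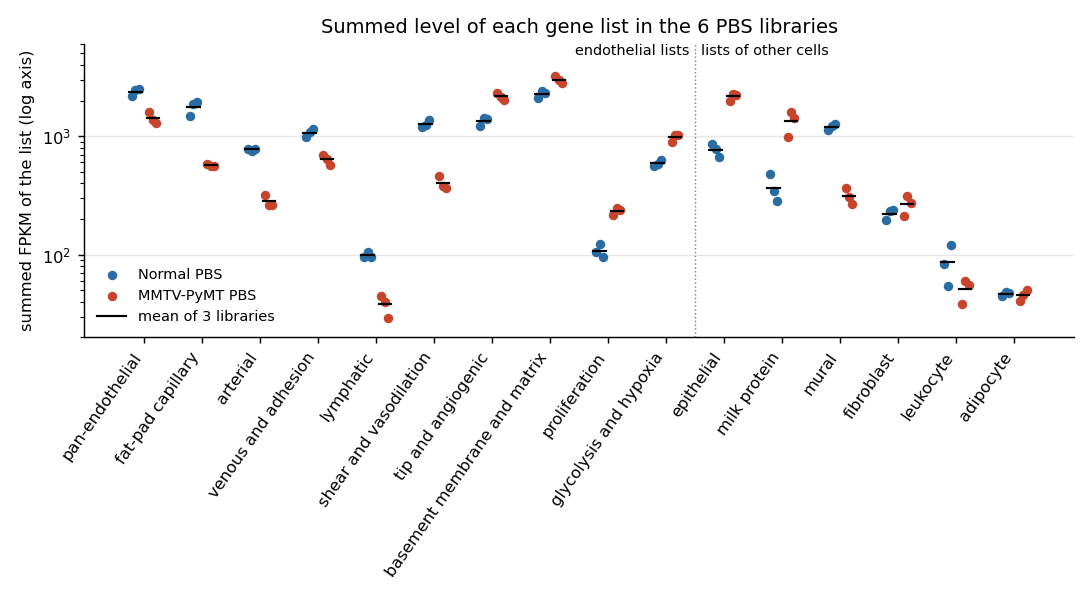
Summed FPKM of 16 gene lists in each of the 3 normal PBS (blue) and 3 MMTV-PyMT PBS (red) libraries on a log axis, with bars for the means. Arterial, capillary, lymphatic, flow-related and mural lists lie lower in every tumour library, proliferation and epithelial lists lie higher, and the 2 groups overlap for the leukocyte, fibroblast and adipocyte lists. Scaling to the pan-endothelial list moves all changes up, so the rises named here keep their sign by construction. The median change of each of the falls named here keeps its sign as well, and those of the pan-endothelial and leukocyte lists do not.

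Among the endothelial lists, arterial identity genes had the lowest median. Of 16 arterial genes 10 were called lower and 0 higher, against 7.67% and 6.24% of all tested genes, and the median log2 change was −1.76 (−1.07 with the pan-endothelial scaling). Gja5 (ENSMUSG00000057123.14, chromosome 3, 96904693 to 97077416, plus strand), the connexin of arterial endothelium, measured 35.03, 30.2 and 33.1 FPKM in normal and 1.27, 1.19 and 1.05 FPKM in MMTV-PyMT libraries, a level 28.0 times lower (log2 change −3.96 ± 0.16 (SE), adjusted p = 1.87e-10). Sema3g, a semaphorin secreted by arterial ECs, measured 172, 159 and 165 FPKM and 23.2, 15.6 and 13.8 FPKM (log2 change −3.20 ± 0.17 (SE), adjusted p = 1.77e-09). The tyrosine kinase Bmx measured 12.4, 12.2 and 12.7 FPKM and 1.66, 1.25 and 1.04 FPKM (log2 change −2.54 ± 0.14 (SE), adjusted p = 1.77e-09). The tissues overlapped in none of these 3 genes, and the mean levels of Sema3g and Bmx were 9.43 and 9.44 times lower. The Notch ligand Jag1 fell by 2.32, the second arterial connexin Gja4 by 1.98 and the Notch target Hey2 by 1.78 on the log2 scale. Other Notch genes were not called: the ligand Dll4 was at 55.8 ± 5.21 FPKM in normal and 54.6 ± 8.61 FPKM in MMTV-PyMT ECs (SD, n = 3, adjusted p = 0.87), Notch1 and Notch4 did not pass either (adjusted p = 0.519 and 0.101), and the guidance receptor Unc5b was higher by 0.64, under the 2-fold limit (adjusted p = 0.00235). The mural genes, whose cells surround arteries in tissue, were lower in the same libraries by the medians given above, and their part in the arterial falls was not tested.

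Genes that are known to depend on flow and that regulate vessel tone and clotting fell alongside. Of 14 such genes 9 were called lower and 0 higher, with a median log2 change of −1.40 (−0.62 with the pan-endothelial scaling, when 4 were called lower and 1 higher), and the summed level was 1185 to 1365 FPKM in normal and 362 to 463 FPKM in MMTV-PyMT libraries. Edn1 (ENSMUSG00000021367.8, chromosome 13, 42301476 to 42307990, plus strand), the vasoconstrictor endothelin and a member of both lists, measured 40.4, 48.6 and 51.1 FPKM in normal and 3.42, 3.97 and 2.87 FPKM in MMTV-PyMT libraries (log2 change −3.43 ± 0.20 (SE), adjusted p = 3.54e-09). Klf2 (ENSMUSG00000055148.7, chromosome 8, 72319033 to 72321656, plus strand) measured 158, 130.2 and 187 FPKM and 39.9, 21.7 and 21.4 FPKM (log2 change −2.52 ± 0.24 (SE), adjusted p = 4.09e-07). Its relative Klf4 measured 110.4, 94.0 and 132 FPKM and 28.9, 18.8 and 17.9 FPKM (log2 change −2.32 ± 0.19 (SE), adjusted p = 7.61e-08). Klf2 and Klf4 were highest in MMTV-PyMT PBS 1 among the tumour libraries and still below all normal libraries. Thbd, which turns thrombin into an anticoagulant, fell from 167 ± 15.8 to 31.5 ± 8.98 FPKM and Cav1, the coat protein of caveolae, from 497 ± 34.9 to 161 ± 5.84 FPKM (SD, n = 3 each). Nos3, the endothelial nitric oxide synthase, fell by 1.16 on the log2 scale.

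Genes of fatty acid handling in the capillaries of fat were lower in tumour ECs. Of 18 genes 11 were called lower and 1 higher, at a median of −1.67 (−0.91 with the pan-endothelial scaling). Fabp4 (ENSMUSG00000062515.3, chromosome 3, 10204088 to 10208576, minus strand), a fatty acid carrier of capillary ECs and of adipocytes, measured 235, 310.4 and 316 FPKM in normal and 61.0, 66.1 and 63.6 FPKM in MMTV-PyMT libraries (log2 change −2.14 ± 0.26 (SE), adjusted p = 4.88e-06). Rbp7, a retinol-binding protein, measured 229, 274 and 295 FPKM and 60.3, 53.3 and 52.8 FPKM (log2 change −2.24 ± 0.25 (SE), adjusted p = 2.47e-06). The 3 tumour values of each gene lay within a narrow range well below the normal ones. The fatty acid translocase Cd36 and the nuclear receptor Pparg fell too, at log2 changes of −2.09 and −1.63, as did the glycerol channel Aqp7 and the homeobox gene Meox2, at −2.70 and −2.11. Gpihbp1, which anchors lipoprotein lipase to capillary ECs, was not called, at 32.3 ± 5.26 FPKM in normal and 36.3 ± 3.32 FPKM in MMTV-PyMT ECs (SD, n = 3, adjusted p = 0.512), and Acsl1, which activates fatty acids, rose by 1.11. Adipocytes share Fabp4, Cd36, Pparg, Aqp7, Lpl and Acsl1 with these ECs, and their own markers Adipoq and Plin1 were not listed in the table, so the levels of these markers are not known.

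Venous, lymphatic and leukocyte adhesion genes also included more falls than rises. Of 14 venous and adhesion genes 6 were called lower and 0 higher (4 and 2 with the pan-endothelial scaling). Vcam1, the adhesion molecule that captures leukocytes, measured 14.4, 18.3 and 17.9 FPKM in normal and 2.86, 1.70 and 1.68 FPKM in MMTV-PyMT libraries (log2 change −2.55 ± 0.25 (SE), adjusted p = 4.57e-07). Ackr1, a chemokine receptor of venules, measured 89.7, 96.1 and 109 FPKM and 24.9, 19.6 and 17.3 FPKM (log2 change −2.21 ± 0.24 (SE), adjusted p = 1.42e-06). The vein-specifying receptor Nr2f2 fell by 1.93 on the log2 scale. The selectins were different, since Sele and Selp were at log2 changes of −0.44 and −0.42 and did not pass (adjusted p = 0.288 and 0.187). The median of the list was −0.58 and −0.01 with the pan-endothelial scaling. Lymphatic ECs carry CD31 and pass the same gate, and 5 of 8 listed lymphatic genes were called lower (3 with the pan-endothelial scaling), with 0 higher and a summed level of 94.9 to 106 FPKM in normal and 29.1 to 45.0 FPKM in MMTV-PyMT libraries. Prox1, the factor that specifies lymphatic ECs, measured 5.59, 5.92 and 5.63 FPKM in normal and 2.68, 2.53 and 1.84 FPKM in MMTV-PyMT libraries (log2 change −1.01 ± 0.18 (SE), adjusted p = 0.000182), and the hyaluronan receptor Lyve1 18.8, 23.1 and 19.4 FPKM and 6.32, 6.01 and 2.89 FPKM (log2 change −1.87 ± 0.34 (SE), adjusted p = 0.000219). Pdpn and Ccl21a were not listed.

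Against these falls, a set of basement membrane and tip cell genes rose. Of 20 tip and angiogenic genes 7 were called higher and 1 lower, against 6.24% and 7.67% of all tested genes, at a median of 0.27. With the pan-endothelial scaling 10 were higher and 0 lower at a median of 1.07, against 0.65 for all tested genes. Col4a1, Col4a2, Lamb1 and Nid2 are also on the basement membrane and matrix list, so their rises enter both counts. The other tip genes called higher were Igfbp3, Trp53i11 and Mcam. Igfbp3 (ENSMUSG00000020427.11, chromosome 11, 7206086 to 7213923, minus strand), a binding protein of insulin-like growth factors, measured 36.8, 33.6 and 40.4 FPKM in normal and 164, 152 and 147 FPKM in MMTV-PyMT libraries, 4.19 times higher (log2 change 2.04 ± 0.22 (SE), adjusted p = 1.19e-06). Nid2 (ENSMUSG00000021806.4, chromosome 14, 19751265 to 19811787, plus strand), a linker protein of the basement membrane, measured 13.4, 17.6 and 12.6 FPKM and 69.2, 61.8 and 59.1 FPKM (log2 change 2.06 ± 0.28 (SE), adjusted p = 1.33e-05). Col4a1 (ENSMUSG00000031502.11, chromosome 8, 11198423 to 11312826, minus strand), a chain of collagen IV, measured 198, 264 and 221 FPKM and 687, 656 and 611 FPKM (log2 change 1.52 ± 0.22 (SE), adjusted p = 2.47e-05). For all 3 genes the lowest tumour library was more than 2-fold above the highest normal library. The partner chain Col4a2 rose by 1.34, the laminin chain Lamb1 by 1.17, Col15a1 by 1.14, Trp53i11 by 1.32 and the adhesion molecule Mcam (CD146) by 1.12 on the log2 scale. Within groups these genes moved with the pan-endothelial mean and against the epithelial index: the coefficients of Igfbp3 were 0.80 and −0.70, those of Col15a1 0.79 and −0.81, and those of Mcam 0.82 and −0.66. They belong to the 11 rises whose coefficient with the pan-endothelial mean was at least 0.7, or, in the case of Col4a1, Col4a2 and Nid2, fell short of it at 0.68, 0.70 and 0.54. The other 6 of the 11 were Adamts4, F2rl3, Inhbb, Akr1b8, N4bp3 and Ephb1. The 11 genes are 1.26% of the rises, against 7.54% of all tested genes at that limit. The 2 coefficients of a gene are not independent, as the indices ran against each other (r = −0.88 within groups). Both include implanted cGAMP 1, whose pan-endothelial mean of 6.90 was the highest of its group, against 6.21 and 6.52.

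Rises of matrix genes were selective. Of 20 basement membrane and matrix genes 5 were called higher and 5 lower, and the median was 0.41 (1.21 with the pan-endothelial scaling, when 12 were called higher and 1 lower). The 5 rises were Col15a1 and, shared with the tip list, Col4a1, Col4a2, Lamb1 and Nid2. Lamb2, a laminin chain of mature vessels, went from 93.1 ± 4.09 to 35.6 ± 2.26 FPKM and Fn1, fibronectin, from 54.2 ± 1.01 to 14.3 ± 1.66 FPKM (SD, n = 3 each), opposite to Lamb1. Timp3, an inhibitor of matrix proteases, fell by 1.76 on the log2 scale. Several classical markers of sprouting were not called higher under PBS. Esm1, induced in tip cells, measured 11.3, 9.69 and 11.7 FPKM in normal and 4.85, 8.404 and 7.81 FPKM in MMTV-PyMT libraries (adjusted p = 0.0883). Apln was higher in every tumour library than in every normal one but did not pass (log2 change 0.83 ± 0.36 (SE), adjusted p = 0.0609). In the libraries that received cGAMP, Apln was called higher (log2 change 1.78 ± 0.36 (SE), adjusted p = 0.000724). Its difference between the treatments did not pass (adjusted p = 0.266). Angpt2 and Plvap were lower by less than 2-fold (log2 change −0.56 and −0.68, adjusted p = 0.021 and 0.00167). With the pan-endothelial scaling both turned above 0 and did not pass. Nrp1, a co-receptor of vascular endothelial growth factor, was called lower at −1.01 and did not pass with the pan-endothelial scaling (log2 change −0.22, adjusted p = 0.123).

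**Figure D4:**
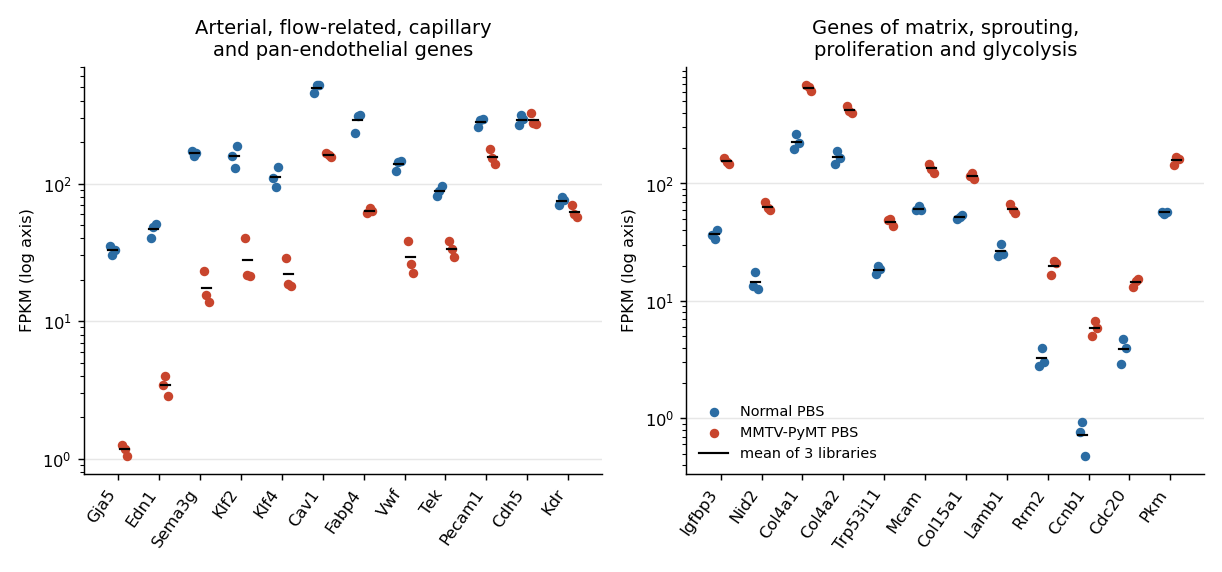
FPKM on a log axis of 24 genes in the 3 normal PBS (blue) and 3 MMTV-PyMT PBS (red) libraries, with bars for the means. On the left the mean levels of Gja5 and Edn1 are 28.0 and 13.7 times lower in tumour libraries while Cdh5 overlaps. On the right each gene lies higher in every tumour library. Scaling to the pan-endothelial list moves all changes up, so the rises on the right keep their direction by construction. The falls of called genes on the left keep theirs as well.

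The cell cycle genes rose together. Of 24 proliferation genes 15 were called higher and 0 lower, against 6.24% and 7.67% of all tested genes, and in all 24 every tumour library was above every normal library, against 35.4% of tested genes. Their median log2 change was 1.18 (1.82 with the pan-endothelial scaling, when 23 were called higher) and their sum was 96.0 to 122 FPKM in normal and 215 to 246 FPKM in MMTV-PyMT libraries. Rrm2 (ENSMUSG00000020649.11, chromosome 12, 24708241 to 24714146, plus strand), a subunit of ribonucleotide reductase, measured 2.81, 3.96 and 3.03 FPKM in normal and 16.6, 21.8 and 21.0 FPKM in MMTV-PyMT libraries (log2 change 2.29 ± 0.22 (SE), adjusted p = 4.91e-07). Ccnb1, the mitotic cyclin, measured 0.763, 0.940 and 0.481 FPKM and 5.02, 6.70 and 5.90 FPKM (log2 change 1.99 ± 0.23 (SE), adjusted p = 2.86e-06). Cdc20, which activates the anaphase ligase, measured 2.90, 4.74 and 4.001 FPKM and 13.1, 14.9 and 15.3 FPKM (log2 change 1.68 ± 0.23 (SE), adjusted p = 1.56e-05). The mitotic genes thus rose from low levels. The replication genes Mcm2, Mcm3, Mcm4 and Pcna, chosen after their values were seen, changed less, at 0.93, 0.31, 0.34 and 0.15. None of these reached 2-fold without the pan-endothelial scaling. Within groups the list followed neither index, at median coefficients of 0.21 with the epithelial and −0.14 with the pan-endothelial index, and 0 of the 24 genes reached 0.7 with either. Which of the cells present carried these transcripts was not tested.

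Many genes of late cell cycle share promoter elements, a CCAAT box bound by NF-Y and the cell cycle genes homology region (CHR), read here as TTTGAA or TTCGAA, which recruits the DREAM and MuvB complexes. RefSeq promoters (build GRCm38.p6, 250 bases before to 50 after the start) were found for 20 of the 24 genes. CCAAT on either strand occurred in 17 of the 20, against 41.1% of all 27025 genes with such a promoter, a CHR on either strand in 11 against 21.7%, and both in 11 against 8.61%. These are matches of letters and were not tested as sites. The promoters of 3 mitotic genes that rose are shown because they hold both elements close to the start. Matches of either motif on either strand, none of which overlap here, are in capitals, so that CCAAT also appears as ATTGG, and each sequence runs 5′ to 3′ on the strand of its gene. Cdc20 lies at chr4:118437294-118437593, Ccnb2 at chr9:70421505-70421804 and Cdk1 at chr10:69352863-69353162, all on the minus strand.
Cdc20: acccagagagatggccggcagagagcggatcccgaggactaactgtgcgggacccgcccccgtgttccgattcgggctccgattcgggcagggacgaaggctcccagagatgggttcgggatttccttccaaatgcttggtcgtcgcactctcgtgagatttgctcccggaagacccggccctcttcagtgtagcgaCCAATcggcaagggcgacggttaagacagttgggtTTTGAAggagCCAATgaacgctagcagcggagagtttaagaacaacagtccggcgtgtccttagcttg
Ccnb2: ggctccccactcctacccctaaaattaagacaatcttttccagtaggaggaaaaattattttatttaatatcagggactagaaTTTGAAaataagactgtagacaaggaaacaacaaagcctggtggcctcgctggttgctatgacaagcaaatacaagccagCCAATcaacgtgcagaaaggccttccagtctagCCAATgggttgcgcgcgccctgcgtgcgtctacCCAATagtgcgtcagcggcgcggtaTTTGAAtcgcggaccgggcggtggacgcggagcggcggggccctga
Cdk1: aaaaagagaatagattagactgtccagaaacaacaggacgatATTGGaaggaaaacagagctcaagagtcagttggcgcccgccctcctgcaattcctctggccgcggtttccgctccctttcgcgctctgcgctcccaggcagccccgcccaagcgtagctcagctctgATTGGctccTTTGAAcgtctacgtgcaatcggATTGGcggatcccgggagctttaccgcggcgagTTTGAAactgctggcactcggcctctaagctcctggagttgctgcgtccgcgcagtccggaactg
Cdc20 held 2 CCAAT and 1 CHR match, and Ccnb2 and Cdk1 each held 3 and 2. Ccnb2, another mitotic cyclin, rose by 1.41 and Cdk1, the kinase it binds, by 1.55 on the log2 scale.

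Glycolytic genes tended to be higher. Of 18 genes of glycolysis and the hypoxia response 6 were called higher and 1 lower, against 6.24% and 7.67% of all tested genes, with a median of 0.78. With the pan-endothelial scaling 12 were higher and 0 lower at a median of 1.41, against 0.65 for all tested genes. Pkm, pyruvate kinase, measured 57.6, 55.2 and 57.4 FPKM in normal and 144, 169 and 160.3 FPKM in MMTV-PyMT libraries (log2 change 1.46 ± 0.09 (SE), adjusted p = 4.48e-09). Ldha, which turns pyruvate into lactate, measured 64.1, 60.1 and 65.2 FPKM and 183, 218 and 232 FPKM (log2 change 1.72 ± 0.10 (SE), adjusted p = 3.72e-09). Their coefficients with the epithelial index within groups were −0.24 for Pkm and 0.56 for Ldha, and those of Eno1 and Pfkl, which also rose, were 0.83 and 0.84. The hypoxia-inducible genes were divided, as Egln3, a prolyl hydroxylase, rose by 1.81, Ddit4 was called lower at −1.03 but not with the pan-endothelial scaling (log2 change −0.23, adjusted p = 0.175), and the phosphofructokinase regulator Pfkfb3 and the mitophagy gene Bnip3 were lower by less than 2-fold (−0.98 and −0.97, adjusted p = 0.000166 and 0.000317).

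Signalling and immune lists depended on the reference level. In the TGF-beta and BMP list 5 of 17 genes were called lower and 1 higher. Bmp6, a BMP ligand made by ECs, fell from 8.02 ± 0.667 to 1.64 ± 0.241 FPKM and its endothelial receptor Acvrl1 from 48.9 ± 2.25 to 17.0 ± 1.71 FPKM, while Id2, a BMP target that epithelium also expresses, rose from 15.8 ± 0.948 to 72.7 ± 12.6 FPKM (SD, n = 3 each). The Wnt list had 3 calls lower, among them the receptor Fzd4 and the feedback inhibitor Nkd1, and 1 higher, Rnf43, in 12 genes. The medians of these 2 lists, −0.45 and −0.41, turned to 0.36 and 0.24 with the pan-endothelial scaling, when each list had 1 call lower and 3 higher. That scaling moved the median of all tested genes from 0.02 to 0.65, and called 3973 of 13983 higher and 399 lower. Of 14 interferon response genes 3 were called lower and 0 higher, with the guanylate-binding protein Gbp2 at 43.1, 53.2 and 49.7 FPKM in normal and 17.0, 18.9 and 16.2 FPKM in MMTV-PyMT libraries (log2 change −1.43 ± 0.20 (SE), adjusted p = 2.5e-05). The median of the interferon list was −0.87, and with the pan-endothelial scaling it was −0.16, with 0 genes called lower and 1 higher. MHC class II genes gave 0 calls in 7 with limma (0 at an unadjusted p below 0.05 and 0 calls with voom), and Cd74 spread widely among normal libraries, from 33.1 to 86.9 FPKM.

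Outside the gene lists, several genes were among the 12 largest falls. Cytl1, a small secreted protein, measured 58.6, 60.04 and 62.0 FPKM in normal and 4.14, 1.49 and 2.09 FPKM in MMTV-PyMT libraries (log2 change −4.17 ± 0.26 (SE), adjusted p = 5.55e-09). The neuropeptide receptor Npy1r measured 22.9, 22.9 and 30.4 FPKM and 1.09, 1.04 and 0.957 FPKM (log2 change −3.69 ± 0.17 (SE), adjusted p = 5.3e-10), and Sncg, gamma-synuclein, 49.4, 47.2 and 56.0 FPKM and 3.71, 2.17 and 3.05 FPKM (log2 change −3.72 ± 0.21 (SE), adjusted p = 2.42e-09). Each of the 3 was above 20 FPKM in every normal library and below 5 FPKM in every tumour library. H2-M9, Ccdc3, Fam107a, Areg, Prelp and Ptn completed the group together with Gja5, Myh11 and Edn1, with log2 changes from −3.35 for Ptn to −4.16 for H2-M9. Areg, amphiregulin, is a growth factor of hormone-sensing mammary epithelium and its within-group coefficient with the epithelial index was 0.37. When genes on lists of other cells, genes with a coefficient of 0.5 or more and genes with a mean under 5 FPKM were set aside, the 12 largest falls were these genes without Myh11 and with Trac, a T cell receptor gene. The 12 largest rises under the same limits were Slc38a3, Cilp, Snora73a, Tpd52l1, Calml3, Tmem37, Spp1, Dkkl1, Clic6, Pmepa1, Pbk and Foxi1, with log2 changes from 2.36 to 3.54. Spp1, osteopontin, which epithelium and macrophages secrete, measured 229.6, 212 and 165 FPKM in normal and 1182, 1424 and 1403 FPKM in MMTV-PyMT libraries (log2 change 2.73 ± 0.40 (SE), adjusted p = 3.03e-05). Pmepa1, a TGF-beta target, measured 9.48, 9.25 and 8.34 FPKM and 56.1, 56.0 and 66.2 FPKM (log2 change 2.59 ± 0.13 (SE), adjusted p = 7.35e-10), at coefficients of 0.11 with the epithelial and −0.19 with the pan-endothelial index.

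The same tissue contrast was then read in the 6 libraries that received cGAMP, which share no library with the PBS contrast. There 5.05% of tested genes were called higher and 5.38% lower, 706 and 752 genes (1286 and 503 with the pan-endothelial scaling). Of the 873 PBS rises 556, or 63.7%, were called higher under cGAMP, which is 78.8% of the 706, and 0 were called lower. Of the 1072 PBS falls 527, or 49.2%, were called lower, which is 70.1% of the 752, and 1 was called higher, Csn1s2a. Across genes, which are not independent replicates, Spearman's correlation of the 2 contrasts was 0.80. The difference between the 2 contrasts was itself tested, and 1.75% of tested genes were called, 179 with a higher and 66 with a lower value under cGAMP, a balance that turned to 50 and 355 with the pan-endothelial scaling.

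For several arterial and adhesion genes the gap between the tissues was smaller after cGAMP. Gja5 measured 8.51, 4.90 and 5.25 FPKM in normal and 1.33, 2.57 and 1.62 FPKM in MMTV-PyMT libraries under cGAMP, so that its log2 change went from −3.96 under PBS to −1.33 (difference 2.62 ± 0.23 (SE), adjusted p = 6.09e-05). Edn1 measured 12.1, 9.77 and 15.01 FPKM and 4.14, 5.65 and 5.11 FPKM, a change from −3.43 to −1.14 (difference 2.29 ± 0.28 (SE), adjusted p = 0.000551). Normal levels of these 2 genes under cGAMP were below those under PBS, and tumour levels above, in each library and without a test. Vcam1 measured 43.2, 36.3 and 25.9 FPKM and 23.9, 39.9 and 34.2 FPKM, and its log2 change went from −2.55 to −0.10 (difference 2.45 ± 0.35 (SE), adjusted p = 0.00108). Basement membrane rises were also seen under cGAMP, with Nid2 at 2.06 and 2.05, Col4a1 at 1.52 and 1.70 and Mcam at 1.12 and 1.35 under PBS and cGAMP, and the differences of −0.00781 ± 0.39, 0.18 ± 0.31 and 0.23 ± 0.23 (SE) did not pass (adjusted p = 0.994, 0.775 and 0.594). Of the 24 proliferation genes 14 were called higher under cGAMP, and of the 12 mural genes 10 were called lower.

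**Figure D5:**
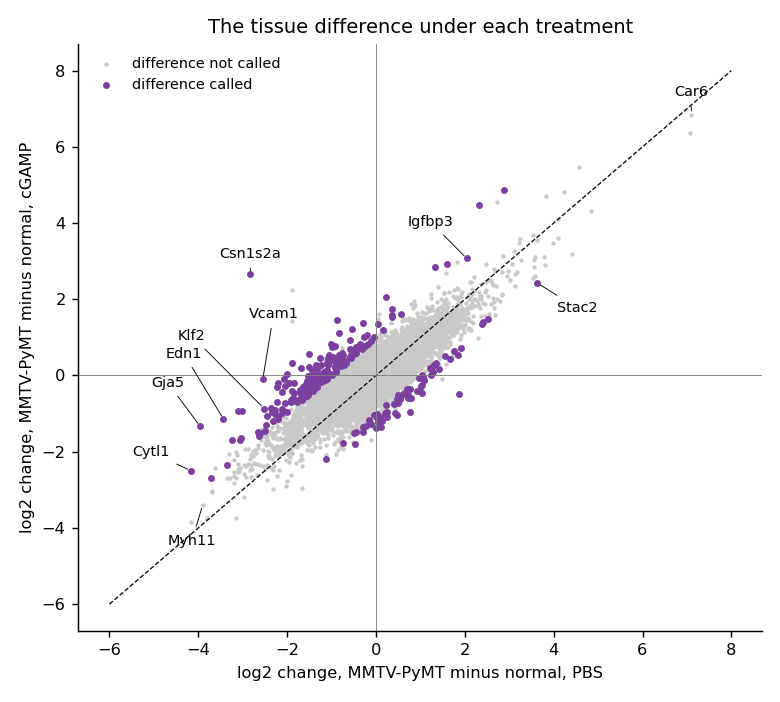
Log2 change between MMTV-PyMT and normal ECs under cGAMP against that under PBS for each tested gene, with the dashed line where both are equal. Purple points are genes whose difference between treatments was called. Gja5, Edn1, Vcam1 and Klf2 lie above the line, Stac2 below it, and Car6 and Myh11 near it.

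MMTV-PyMT ECs were last set beside ECs of tumours implanted as cultured MMTV-PyMT tumour cells, also under PBS. MMTV-PyMT ECs were called higher for 3.05% and lower for 4.28% of tested genes, 427 and 598, a balance that turned to 2662 and 196 with the pan-endothelial scaling. Several tip cell genes that rose against normal ECs were lower than in implanted tumours. Igfbp3 was at 36.9 ± 3.40 FPKM in normal ECs, at 155 ± 8.75 FPKM in ECs of MMTV-PyMT tumours and at 1138 ± 217 FPKM in those of implanted tumours, and Nid2 was at 14.5 ± 2.69, 63.4 ± 5.21 and 189 ± 22.3 FPKM in the same order (SD, n = 3 each, log2 change against implanted ECs −2.85 and −1.56, adjusted p = 1.23e-07 and 0.000315). Of the 20 tip and angiogenic genes 13 were called lower than in implanted ECs and 0 higher, at a median of −1.25 (−0.54 with the pan-endothelial scaling, when 7 were called lower). Gja5 was at 12.5, 12.7 and 11.7 FPKM in the implanted libraries, above each MMTV-PyMT library and below each normal one (−2.62, adjusted p = 1.23e-08 against implanted ECs). All 14 interferon response genes and all 7 MHC class II genes were called lower than in implanted ECs, with medians of −2.63 and −2.22 (−2.02 and −1.77 with the pan-endothelial scaling). Proliferation genes gave 0 calls in 24 here with limma (7 at an unadjusted p below 0.05 and 0 calls with voom). With the pan-endothelial scaling 5 were called higher, against 2662 of all 13983 tested genes, and the median moved from 0.06 to 0.69. Mural genes gave 2 calls lower in 12 (0 lower and 1 higher with that scaling), and epithelial genes 5 calls higher and 0 lower in 24 (16 higher with that scaling). Both tumour contrasts use the same 3 MMTV-PyMT PBS libraries, so their values are given side by side and not compared further.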

How the data were processed

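RNA of sorted ECs was made into strand-marked libraries and read as paired ends. Per the labels and the study's methods, the authors checked reads with FastQC, aligned them to mm10 with STAR 2.7 and counted them per gene with HTSeq. The deposited values are FPKM of 16248 genes in 18 libraries, unpooled. None of them is 0, the lowest being 0.0045 FPKM, so genes without reads in some libraries may have been left out before deposit. How FPKM were made from the counts, and whether counting used the strand, is not given in the sources used here. Whole reads were recovered for 16247 genes (99.99%, within 0.01 reads), 15793 of them from GENCODE M21 exon lengths, and totalled 9124935 to 12129416 per library. GENCODE also gave identifiers and mm10 coordinates.

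Genes with at least 1 FPKM in at least 3 libraries were tested (13983, with 2265 below the limit) by limma 3.58.1 with trend (R 4.3.3) on log2(FPKM + 1), with 1 mean per group over all 18 libraries. Fold changes are on that scale and understate changes of low genes. Calls needed a Benjamini-Hochberg adjusted p below 0.05 and a 2-fold change. The fit was tested on simulated data. Groups came from the labels, and tumour columns were matched to samples by name. The columns used for normal ECs name a treatment and a replicate but no tissue. They were assigned to the fat pad because every other column names a tumour.

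The comparison, the gene lists and the tests were chosen with earlier results of these data known. Named were the 12 largest rises and falls whose groups did not overlap, the same among genes on no list of other cells with a coefficient under 0.5 and a mean of at least 5 FPKM, up to 5 called genes per list (up to 3 by level where none was called) and 7 markers. Predicted, date-like and repeated names were skipped. Other list members named, and the hormone-sensing, alveolar and immediate-early groups, were chosen after their values were seen. Alternatives covered the pseudocount, filters, scaling, voom on recovered reads, the fold limit, the replicate block and leaving out each library.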

Additional observations from a re-analysis of the deposited data

Results flagged for a closer look

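For 24 of the named genes the difference between MMTV-PyMT and normal ECs was not the same under cGAMP as under PBS by the test of the difference itself (limma, Benjamini-Hochberg adjustment over all tested genes, at least 2-fold). In 21 of them the log2 change was higher under cGAMP. With the pan-endothelial scaling, under which higher and lower differences over all genes turned from 179 and 66 to 50 and 355, all 24 kept their sign and 10 their call: Gja5, Edn1, Vcam1, Klf2, Gbp2, Gbp4, Csn1s2a, Adamts4, Stac2 and Inhbb. For arterial and flow-related genes that were lower in tumour ECs under PBS, the gap to normal ECs was smaller under cGAMP. It shrank for Gja5 by 2.62, Edn1 by 2.29, Klf2 by 1.65, Nos3 by 1.26, Jag1 by 1.13 and Hey2 by 1.08 (adjusted p from 6.09e-05 to 0.0244). The 16 arterial genes summed to a mean of 772 FPKM under PBS and 448 FPKM under cGAMP in normal ECs. In MMTV-PyMT ECs these means were 281 and 286 FPKM, all given without a test. Klf2 was at 158 ± 28.2 FPKM in normal and 27.7 ± 10.6 FPKM in MMTV-PyMT ECs under PBS and at 96.6 ± 17.6 and 53.3 ± 14.2 FPKM under cGAMP (SD, n = 3 each).

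Adhesion and interferon-induced genes followed the same direction, with Vcam1 by 2.45, Ackr1 by 1.14, Ly6a by 1.03, Ifit3 by 1.61, Gbp2 by 1.56 and Gbp4 by 1.37. Gbp2 was at 336 ± 88.8 FPKM in normal and 363 ± 59.1 FPKM in MMTV-PyMT ECs under cGAMP (SD, n = 3 each). Cytl1 differed by 1.67, Oxtr by 1.54, Bmp4 by 1.18, Ltbp4 by 1.05, Sncg by 1.02 and Prelp by 1.01. Many of these genes were named for a fall in the PBS libraries that also enter the difference.

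Igfbp3 was the 1 tip cell gene, with a rise that was larger under cGAMP by 1.03 (adjusted p = 0.0472), at 34.1 ± 2.97 FPKM in normal and 303 ± 90.0 FPKM in MMTV-PyMT ECs (SD, n = 3 each). Milk protein genes differed in the same direction, Csn1s2a by 5.48 and Lalba by 1.97. Csn1s2a measured 0.424, 2.99 and 0.184 FPKM in normal and 26.4, 28.2 and 1.09 FPKM in MMTV-PyMT libraries under cGAMP. Rises that were smaller under cGAMP were those of Adamts4 (−1.25), Stac2 (−1.20) and Inhbb (−1.04). The cause of these differences was not tested.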

How the results depend on the processing

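Counts moved with the fold limit, the pseudocount, voom, the filter and the reference level. In the order of genes higher and lower in MMTV-PyMT than in normal ECs under PBS, higher and lower under cGAMP, with a higher and lower tissue difference under cGAMP than PBS, and higher and lower than in implanted ECs, the counts were 873, 1072, 706, 752, 179, 66, 427 and 598. Where they moved by over 1.5 times, they were 1332, 1888, 1121, 1483, 274, 104, 764 and 1210 with a pseudocount of 0.1, and 1366, 1948, 1179, 1513, 287, 115, 809 and 1224 with voom on recovered reads. Without the fold limit they were 4168, 3726, 4009, 3090, 766, 405, 3446 and 2915. With a mean of at least 5 FPKM the counts that moved so far were 558, 553, 309 (lower under cGAMP), 34 (lower difference) and 243 (higher than implanted). With the pan-endothelial scaling they were 3973, 399, 1286 (higher under cGAMP), 50, 355, 2662 and 196, and with scaling by total reads 115 for the lower difference. The fewer genes tested account by construction for the lower counts under the filter, and the cause of the others was not tested. Leaving out each library gave 820 to 963 and 1026 to 1132 under PBS, 648 to 830 and 689 to 868 under cGAMP, 129 to 242 and 45 to 78 for the differences, and 377 to 470 and 552 to 649 against implanted ECs. Where that left an arm of 2 libraries, the spread was shared over all groups. Deviations of libraries with equal replicate numbers correlated at −0.05, 0.03 and −0.04. Such values cannot decide whether equal numbers shared an experiment, since each library's own cell mix also enters the deviations. With the replicate block the PBS counts were 875 and 1068 and no other count moved by over 1.5 times. Without genes of other cells and those that moved with the epithelial index, an alternative added after seeing the data, 576 rises were left. Of the 873 rises, 290 moved with the epithelial index, 304 to 311 when 1 of the 6 libraries was left out, 498 at a limit of 0.5, 161 without implanted cGAMP 1, and 11 moved with the pan-endothelial mean instead. The epithelial index difference of 1.15 was 1.504 from summed FPKM.

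Of 194 named genes 170 passed the adjusted p limit, and 17 of these lost it in at least 1 of 15 alternatives, 8 of them on leaving out a library. Only the pan-endothelial scaling turned a direction, in Angpt2 (0.19), Plvap (0.13), Prom1 (0.31), Atf3 (0.11), Egr1 (0.043), Fosb (0.14) and Jun (0.55). Under it Bnip3, Ddit4, Dpt, Krt17, Krt19, Nrp1, Pecam1, Pfkfb3 and Prlr did not pass, and Lef1 did not pass without normal PBS 3 (adjusted p = 0.0563). Genes near 1 FPKM rest on few reads, which limits how small a change could be seen.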

Other observations

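Epithelial genes did not move as 1 block, as seen in 2 groups of luminal genes put together after the values were known and therefore given without a test. Of 8 listed genes of hormone-sensing luminal cells 6 were called lower and 0 higher, against 7.67% and 6.24% of all tested genes. With the pan-endothelial scaling 3 were called lower and 0 higher. Pgr and Cited1, of the same group, were not listed. Foxa1, a transcription factor that opens chromatin for hormone receptors, measured 15.4, 10.97 and 12.6 FPKM in normal and 1.52, 0.527 and 1.04 FPKM in MMTV-PyMT libraries. The prolactin receptor Prlr measured 34.7, 25.8 and 28.7 FPKM and 9.99, 10.2 and 10.98 FPKM, and the oestrogen receptor Esr1, which other cells also express, 4.17, 3.00 and 3.88 FPKM and 1.15, 0.912 and 1.13 FPKM. Together with Areg, Krt19 and Wfdc2 these 6 genes had log2 changes from −3.79 to −1.18, and the median of the group was −1.36 (−0.66 with the pan-endothelial scaling, under which Krt19 and Prlr did not pass). The summed level of the 8 listed genes was 256 to 336 FPKM in normal and 104 to 115 FPKM in MMTV-PyMT libraries. Genes of milk-forming alveolar cells went the other way, and the 10 genes summed to 208 to 272 FPKM and 1663 to 2382 FPKM. Plet1 measured 24.1, 23.0 and 19.7 FPKM in normal and 255, 286 and 295 FPKM in MMTV-PyMT libraries, the folate receptor Folr1 3.65, 3.01 and 2.49 FPKM and 27.0, 46.5 and 41.3 FPKM, and Elf5, the factor of alveolar fate, 14.9, 12.9 and 9.20 FPKM and 42.7, 47.1 and 46.8 FPKM. Aldh1a3 was the member that was not higher, at a log2 change of −0.36. Within groups the median coefficient with the epithelial index was 0.84 for the alveolar and 0.36 for the hormone-sensing genes. Krt19 is the case that separates these measures, with a within-group coefficient of 0.91 and a fall between the tissues.

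Immediate-early genes, which tissue digestion can induce, were abundant in both tissues, with summed levels of 3020.3 to 3940.3 FPKM in normal and 2409.7 to 3254 FPKM in MMTV-PyMT libraries. Of 10 such genes, also put together afterwards, Dusp1 had the largest difference, at 217, 191 and 261 FPKM in normal and 104, 79.7 and 76.7 FPKM in MMTV-PyMT libraries, and Fos measured 1377, 1119.8 and 1481 FPKM and 1243, 897 and 1092 FPKM. The group's median was −0.28, which turned to 0.53 with the pan-endothelial scaling. Their part in the lower levels of Klf2, Klf4 and Edn1 was not tested.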
